A study of Arabidopsis thaliana with 6 samples.

Results

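The UGT73B genes of Arabidopsis thaliana encode 5 closely related UDP-glycosyltransferases, UGT73B1 to UGT73B5. The genes were chosen by name, and the probe set of each by its log2 intensity, as the brightest one over the 6 arrays that named the gene alone. Each gene had 1 such probe set and 0 that named it with further genes, so brightness decided nothing, and the levels are given as a description. All 5 genes were thus measured, among 16405 genes named in the table and 28501 probe sets tested. The study compared 3 biological replicates of ara6-1, a knock-out mutant of the RAB5 GTPase gene ARA6, with 3 of the wild type (WT) in the Columbia accession. All plants had been sown on MS plates, kept for 1 day at 4 °C, grown at 23 °C in continuous light and used whole at 14 days. Total RNA of each sample was hybridized to 1 Affymetrix whole-transcript array, and the values are probe set intensities read here on the log2 scale. The study asked, per its title, what ARA6 does in starch and sugar homeostasis, and only 1 mutant line was measured, so that the loss of ARA6 and any other difference of that line cannot be told apart.

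UDP-glycosyltransferases attach a sugar, most often glucose from UDP-glucose, to small molecules such as flavonoids, hormones and foreign compounds, which makes them more soluble and ready for storage in the vacuole. The UGT73B enzymes belong to the UGT73 group, whose members act mainly on phenolic compounds, and their transcripts are known to respond to pathogens, oxidative stress and xenobiotics. UGT73B2 is known as a flavonol glucosyltransferase, UGT73B4 as an enzyme that conjugates breakdown products of the explosive TNT, and UGT73B3 and UGT73B5 as genes needed for full resistance to avirulent Pseudomonas syringae. UGT73B3, UGT73B2 and UGT73B1 follow one another on chromosome 4 in the RefSeq annotation of TAIR10.1, with 0 other protein-coding genes between them, and UGT73B5 and UGT73B4 are neighbours on chromosome 2.

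The measured tissue was checked first. SBPASE, a Calvin cycle enzyme gene of green tissue, averaged a log2 intensity of 11.4 in ara6-1 and 11.3 in WT. PYK10, a beta-glucosidase gene of roots, averaged 12.3 in ara6-1 and 12.2 in WT, so both shoot and root RNA were present in whole plants. Of the markers listed, 2 of 7 for photosynthetic tissue, 3 of 6 for root, 0 of 4 for floral organs and 0 of 2 for seed were measured under a gene name. The targeted gene ARA6 averaged 7.01 ± 0.13 in ara6-1 and 8.24 ± 0.22 in WT (SD, n = 3 each), with an adjusted p of 0.140 in limma over all probe sets. All mutant arrays lay below all WT arrays, with a log2 difference of -1.24 and a gap of 0.84 between the nearest arrays. Even this difference missed the adjusted threshold, so counts of 0 past it do not show that genes were unchanged. What the ARA6 signal left in ara6-1 stands for was not tested. Array medians lay between intensities of 28.8 and 29.2. The arrays of ara6-1 replicate 1 and WT replicate 3 were less like their groups than the rest. Among probe sets brighter than the median, the SD of an array's log2 deviations from its group mean was 0.165 for the first and 0.169 for the second, while the other 4 arrays gave 0.120 to 0.126. The members' differences were also computed without these arrays. Nothing in the labels says how the plants of a group were raised apart, so the spread between replicates may be partly technical.

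UGT73B3 and UGT73B2 were the members whose values did not overlap between the genotypes, both higher in all 3 mutant arrays, with 1.26-fold and 1.25-fold higher mean intensities in ara6-1. UGT73B5 had a difference of like size but scattered widely between replicates, UGT73B4 scattered as widely with a smaller difference, and UGT73B1 differed least. None of the 5 passed an adjusted p of 0.05 over all probe sets in limma (0 of 5, with 2 at an unadjusted p under 0.05, UGT73B2 and UGT73B3). Over the whole array, 0.0105% of probe sets passed the adjusted threshold and 9.01% had an unadjusted p under 0.05, 3.63% with higher values in ara6-1 as in these 2 genes. The family's values are therefore reported as differences with their intervals. The unadjusted p of UGT73B2 was above 0.05 in most alternative runs. It was 0.085 where the prior variance follows intensity and 0.124 without WT replicate 3 (limma). That of UGT73B3 stayed under 0.05 in most runs. It was 0.062 where the prior variance follows intensity, 0.057 without ara6-1 replicate 2 and 0.055 without WT replicate 1 (limma). Log2 differences and adjusted p of the alternative runs are given below.

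The members were dim to middling signals. Their mean intensities over the 6 arrays lay between percentile 29.8 (UGT73B3) and percentile 49.9 (UGT73B1) of all tested probe sets. Levels of different genes are not ranked here, because probe sets differ in how strongly they bind their targets. No detection call was used, so for UGT73B3 in particular the share of background in the signal is unknown. How far its fold reflects the transcript is therefore unknown too.

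**Figure D1:**
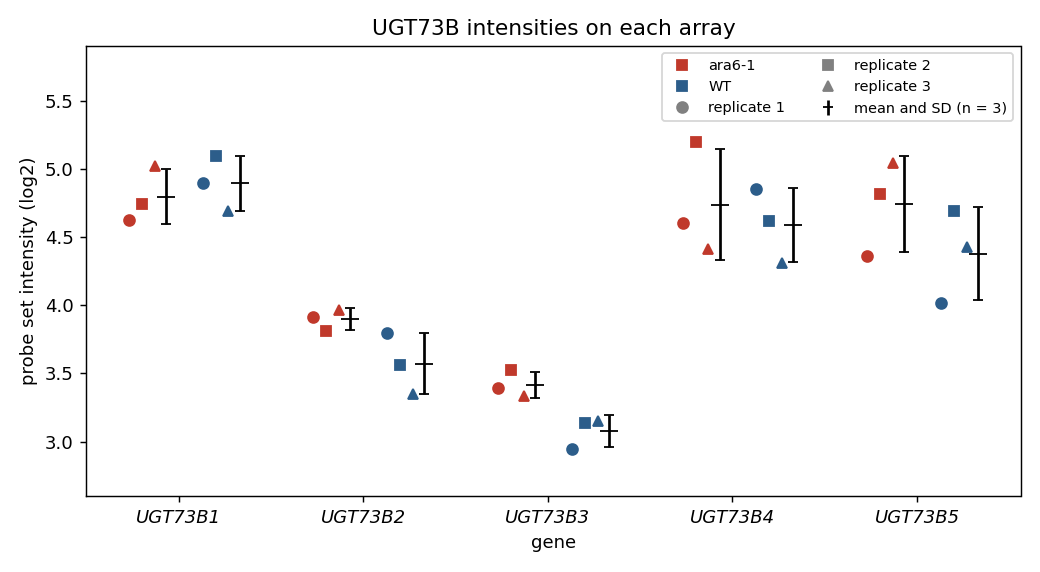
Log2 probe set intensity (vertical axis) of the 5 UGT73B genes on each array, with ara6-1 in red to the left of WT in blue for each gene, marker shapes for replicates 1 to 3, and black bars for the mean and SD of 3 arrays. The red and blue points of UGT73B3 are apart, those of UGT73B2 nearly touch, and those of the other 3 genes overlap.

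UGT73B3, one of the genes needed for resistance to avirulent Pseudomonas syringae, had log2 intensities of 3.39, 3.52 and 3.34 in ara6-1 replicates 1 to 3, against 2.94, 3.14 and 3.15 in WT replicates 1 to 3. All mutant values lay above all WT values, with a gap of 0.18 between the nearest arrays. The means were 3.42 ± 0.10 in ara6-1 and 3.08 ± 0.12 in WT (SD, n = 3 each). Their log2 difference, ara6-1 minus WT, was 0.34 ± 0.11 (SE), with a 95% interval from 0.09 up to 0.59 (adjusted p = 0.519 in limma). UGT73B3 was the steadiest member within groups. Its pooled SD within groups was 0.107, against a median of 0.167 over all probe sets. In linear intensity the gene spanned 10.1 to 11.5 in ara6-1 and 7.7 to 8.9 in WT, while the 5th percentile of the arrays lay at 2.9 to 3.2. In the RefSeq annotation its gene model overlaps those of LEJ1 and AT4G08935, and whether their transcripts add to the signal was not tested.

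UGT73B2, the flavonol glucosyltransferase gene next to it, had log2 intensities of 3.92, 3.81 and 3.96 in ara6-1 replicates 1 to 3, against 3.80, 3.56 and 3.35 in WT replicates 1 to 3. The mutant arrays were close together and the WT arrays spread downwards, with WT replicate 1 just under the lowest mutant array. That gap was 0.01 on the log2 scale, or an intensity of 14.0 in ara6-1 replicate 2 against 13.9 in WT replicate 1, the smallest step the deposited values resolve. The means were 3.90 ± 0.08 in ara6-1 and 3.57 ± 0.22 in WT (SD, n = 3 each). Their log2 difference was 0.33 ± 0.13 (SE), with a 95% interval from 0.02 up to 0.64 (adjusted p = 0.552 in limma). The lowest WT array here was WT replicate 3, one of the arrays that stood apart, and without it the log2 difference was 0.22 (limma, adjusted p = 0.591).

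UGT73B1, the last gene of the chromosome 4 trio, had log2 intensities of 4.63, 4.74 and 5.02 in ara6-1 replicates 1 to 3, against 4.89, 5.10 and 4.69 in WT replicates 1 to 3. The groups were interleaved, with the highest value in WT replicate 2 and the lowest in ara6-1 replicate 1. The means were 4.79 ± 0.20 in ara6-1 and 4.89 ± 0.20 in WT (SD, n = 3 each), a log2 difference of -0.10 ± 0.15 (SE; adjusted p = 0.851 in limma). The 95% interval ran from -0.45 up to 0.25, so differences of these sizes in either direction could not be told from 0. Without WT replicate 2 the difference turned to 0.004 on the log2 scale (limma, adjusted p = 0.996), so its direction is not determined. It was -0.01 without ara6-1 replicate 1 and -0.20 without WT replicate 3, the arrays less like their groups, and -0.21 without ara6-1 replicate 3 (limma, adjusted p between 0.676 and 0.981). In the RefSeq annotation another protein-coding gene model, AT4G34139, lies wholly within that of UGT73B1, and whether the probe set also binds that transcript was not tested.

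UGT73B5, the other gene needed for resistance to avirulent Pseudomonas syringae, had the largest log2 difference of the family and one of its widest spreads. Its log2 intensities were 4.36, 4.82 and 5.04 in ara6-1 replicates 1 to 3, against 4.02, 4.69 and 4.43 in WT replicates 1 to 3. The groups overlapped, because ara6-1 replicate 1 lay below WT replicates 2 and 3. The means were 4.74 ± 0.35 in ara6-1 and 4.38 ± 0.34 in WT (SD, n = 3 each), a log2 difference of 0.36 ± 0.22 (SE), with a 95% interval from -0.17 up to 0.89 (adjusted p = 0.649 in limma). Single arrays moved this value. It was 0.55 without ara6-1 replicate 1, the array that stood apart (limma, adjusted p = 0.430), and 0.18 without WT replicate 1 (limma, adjusted p = 0.860). It was 0.21 without ara6-1 replicate 3 (limma, adjusted p = 0.882).

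UGT73B4, the gene of TNT detoxification beside UGT73B5, had log2 intensities of 4.60, 5.19 and 4.41 in ara6-1 replicates 1 to 3, against 4.85, 4.61 and 4.31 in WT replicates 1 to 3. Apart from the high ara6-1 replicate 2, the mutant arrays lay within the WT range. The means were 4.74 ± 0.41 in ara6-1 and 4.59 ± 0.27 in WT (SD, n = 3 each), a log2 difference of 0.15 ± 0.23 (SE), with a 95% interval from -0.38 up to 0.68 (adjusted p = 0.852 in limma). Without ara6-1 replicate 2 the difference turned to -0.08 (limma, adjusted p = 0.950), and without WT replicate 3 it was 0.01 (limma, adjusted p = 0.997). It was 0.31 without ara6-1 replicate 3 and 0.28 without WT replicate 1 (limma, adjusted p = 0.842 and 0.812). Pooled SDs within groups were 0.346 for UGT73B4 and 0.344 for UGT73B5, each above 90% of all probe sets (percentiles 90.7 and 90.5). The RefSeq gene model of UGT73B4 lies wholly within that of UGT73B5, so the identity of the signal is uncertain for both. Their values ran apart on some arrays: ara6-1 replicate 3 was the highest array for UGT73B5 and the lowest mutant array for UGT73B4. WT replicate 1 was the lowest array for UGT73B5 and the highest WT array for UGT73B4. WT replicate 2 also differed, with UGT73B4 at -0.05 and UGT73B5 at 0.13 relative to their own means. The remaining arrays went the same way in both genes. Both were above their own means in ara6-1 replicate 2, and below them in ara6-1 replicate 1 and WT replicate 3. Whether either probe set binds the other gene's transcript was not tested.

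**Figure D2:**
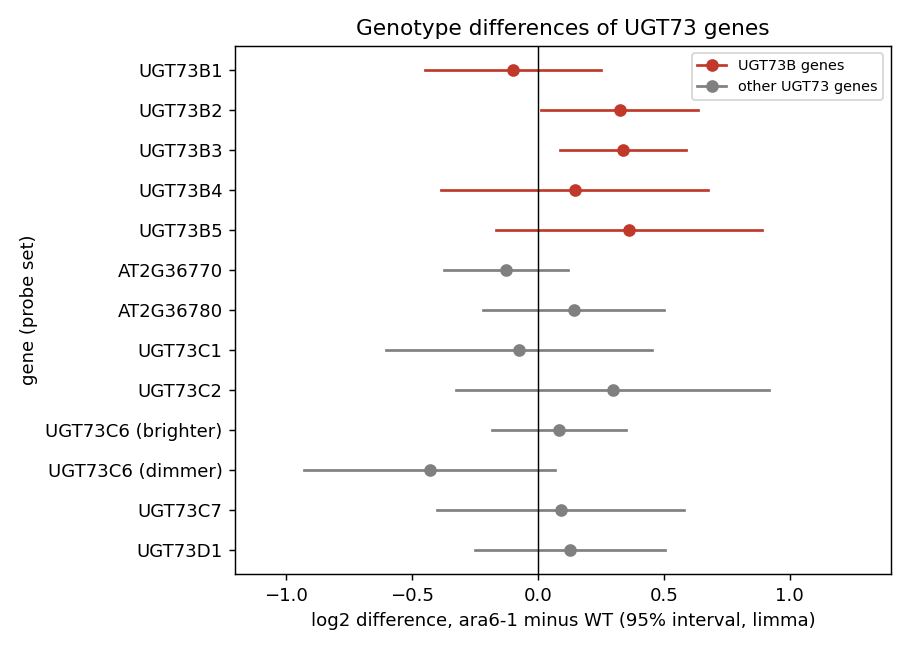
Log2 difference, ara6-1 minus WT, with its 95% interval from limma, for the 5 UGT73B probe sets (red) and the 8 probe sets of the other UGT73 genes (grey). In this fit the intervals of UGT73B2 and UGT73B3 lie just above 0 and the other 11 include 0. No adjusted p was under 0.05.

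In all, 2 of 5 members were higher in ara6-1 without overlap of the groups and 0 of 5 were lower without overlap. Over all tested probe sets, 7.81% were higher in this way and 7.85% lower, so that 15.7% had groups without overlap in either direction. The median log2 difference of the family was 0.33, that of UGT73B2, against -0.002 over all probe sets. With 5 members, chosen with earlier results of these arrays known, these figures describe the family and were not tested. The count depends on UGT73B2, whose nearest arrays were 0.1 apart in intensity. With each array centred on its median, UGT73B3 was the 1 member left without overlap. Without ara6-1 replicate 1 there were 3, UGT73B5 being added, when 16.2% of all probe sets were higher without overlap of the groups. Without both ara6-1 replicate 1 and WT replicate 3 there were again 3, against 23.4% of all probe sets. In that fit the log2 differences were 0.39 for UGT73B3, 0.21 for UGT73B2, 0.58 for UGT73B5, 0.07 for UGT73B4 and -0.12 for UGT73B1 (adjusted p between 0.373 and 0.925 in limma).

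**Figure D3:**
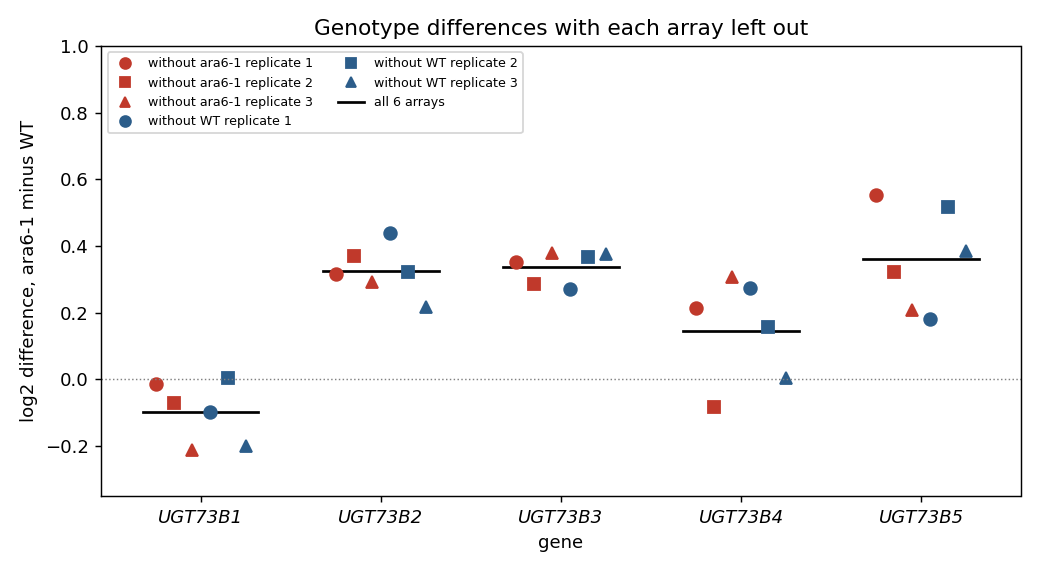
Log2 difference, ara6-1 minus WT, of each UGT73B gene with all 6 arrays (black line) and with each array left out in turn (red for an ara6-1 array left out, blue for a WT array, shapes for replicates 1 to 3). UGT73B2, UGT73B3 and UGT73B5 stayed above 0 in the 6 fits, while UGT73B1 and UGT73B4 crossed 0 in 1 fit each.

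The members were also set against each other. The difference between a pair of genes was taken within each array and compared between genotypes, for the 10 pairs of the family. In 1 of 10 pairs this within-array difference did not overlap between the genotypes: UGT73B1 was lower relative to UGT73B2 in ara6-1 than in WT, by a log2 change of -0.42, with SDs of 0.17 in ara6-1 and 0.22 in WT. No share for gene pairs at large was computed, and 15.7% of single probe sets had groups without overlap, so nothing about the family is read from this count. Relative to UGT73B3 and to UGT73B5, UGT73B1 had log2 changes of similar size (-0.44 and -0.46), but the groups overlapped. UGT73B2 and UGT73B3 differed from each other by a log2 value of -0.01 in their genotype difference, with within-array SDs of 0.18 in ara6-1 and 0.33 in WT. These differences between members are a description, and no pair was tested.

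Likeness of pattern was measured as the root mean square (RMS) difference between the log2 profiles of 2 genes over the 6 arrays, each centred on its own mean, where 0 means the same profile. By this measure the smallest difference within the family was 0.218, for UGT73B2 and UGT73B3. The largest was 0.455, for UGT73B4 and UGT73B5. The measure also grows with how widely a gene varied, so it does not tell shape apart from spread. Log2 values over the 6 arrays spanned 0.61 for UGT73B2 and 0.58 for UGT73B3, against 0.89 for UGT73B4 and 1.03 for UGT73B5. None of the members was close to another on the scale of the whole array. Among 16404 other named genes, the highest place of one member on another's list was 977, that of UGT73B3 for UGT73B5. For UGT73B2, UGT73B3 was at place 4087, and for UGT73B3, UGT73B2 was at place 5509.

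The named genes nearest to each member lay outside the family, and most carry only a locus name. The nearest to UGT73B3 was AT2G26050, with an RMS difference of 0.019 and a log2 difference of 0.33, followed by AT2G20210 at 0.038 and AT4G11540 at 0.040. For UGT73B2 they were AT3G25290 at 0.025, AT3G12510 at 0.027 and AT4G28340 at 0.042. For UGT73B1 they were AT1G19710 at 0.032, AT5G46720 at 0.035 and AT3G08790 at 0.046. Matches were looser for the members that scattered more. The 3 nearest to UGT73B4 were AT5G46000, NGA2, a transcription factor gene of leaf and style development, and AT5G49800, at 0.082 to 0.087. Those to UGT73B5 were AT4G09784, AT1G18130 and AT1G52390, at 0.096 to 0.116. With 6 arrays and 16404 genes to draw from, close matches are easily found, and these are given as a description.

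**Figure D4:**
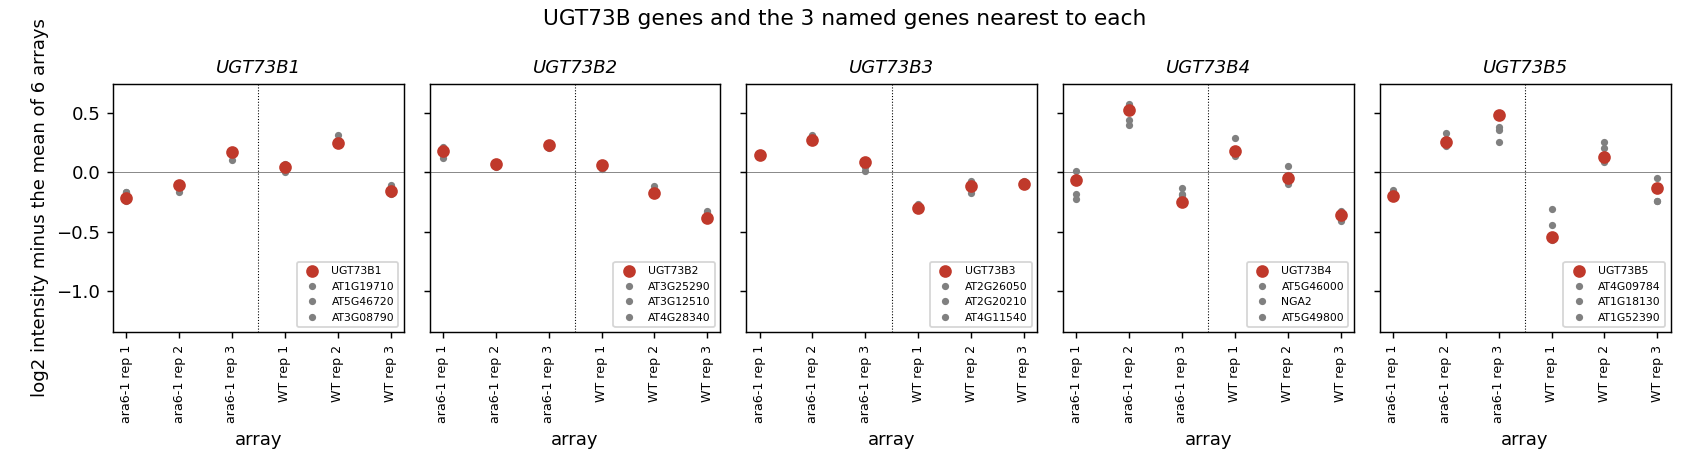
Log2 intensity minus the gene's own mean over 6 arrays (vertical axis), by array, with ara6-1 left and WT right of the dotted line. Each panel shows 1 UGT73B gene (red) and the 3 named genes nearest to it by RMS difference (grey), which lie closest to the red points for UGT73B2 and UGT73B3 and farthest for UGT73B5.

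Of the 8 listed other genes of the UGT73 group, which includes the UGT73C glucosyltransferases of brassinosteroids, cytokinins and flavonoids, 7 were measured, with 0 past the adjusted threshold in limma in either direction and 0 at an unadjusted p under 0.05. Their groups all overlapped. Over all tested probe sets 15.7% had groups without overlap, so with 7 genes nothing is read from this count. The median log2 difference of the 7 was 0.09. The differences were 0.30 for UGT73C2, 0.13 for UGT73D1, 0.09 for UGT73C7, -0.07 for UGT73C1, 0.14 for AT2G36780 and -0.12 for AT2G36770 (limma, adjusted p between 0.731 and 0.933). UGT73C6, a flavonol glucosyltransferase gene, had 2 probe sets that disagreed, with 0.09 in the brighter and -0.43 in the dimmer one (limma, adjusted p = 0.827 and 0.591). The dimmer one, AT2G36770 and AT2G36780 stood at mean log2 intensities of 2.0, 1.49 and 1.43, near the low end of the arrays.

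Of 48 other UGT genes with a UGT symbol outside the UGT73 group, 41 were measured, with 0 past the adjusted threshold in limma. Of the 41, 11 had an unadjusted p under 0.05 in limma, a larger share than the 9.01% of all tested probe sets. The median log2 difference of the 41 was 0.06. It was positive in 28 and negative in 13 of them, against 14144 and 14357 of all tested probe sets. This lean was not tested. Groups did not overlap in 11 of these genes, 8 higher and 3 lower in ara6-1, or 19.5% higher against 7.81% of all probe sets. The largest differences among the 8 were 0.49 for UGT72E1, which glucosylates lignin precursor aldehydes, 0.44 for UGT85A5 and 0.35 for UGT76E12 (limma, adjusted p between 0.506 and 0.547). The 3 lower ones were UGT71C2 with -0.53, UGT76D1 with -0.39 and UGT84B2 with -0.31 (limma, adjusted p between 0.517 and 0.552), all of them dim. The differences of UGT73B2, UGT73B3 and UGT73B5 lay within the range of these genes, from -0.53 to 0.52.

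**Figure D5:**
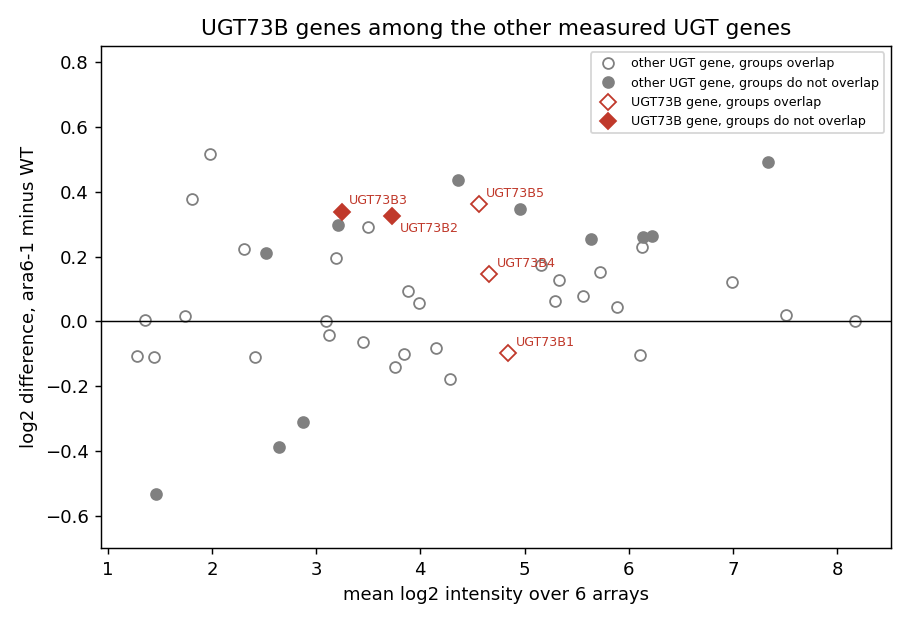
Log2 difference, ara6-1 minus WT (vertical axis), against mean log2 intensity over 6 arrays (horizontal axis) for the 5 UGT73B genes (red diamonds) and 41 other UGT genes (grey circles). Filled symbols are genes whose groups do not overlap, and the UGT73B genes fall inside the cloud of the other genes.

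The genes around the family's known substrates and responses were sparsely measured, with 17 of 87 entries of 4 pathway lists found under a gene name, so these do not stand for their pathways. The lists also share genes with the other UGT genes above, among them UGT78D1, UGT74F1, UGT76B1, UGT71C5 and UGT71B6. Of the 17, 0 passed the adjusted threshold in limma and 2 had an unadjusted p under 0.05, AT1G06000 and BGLU33. Over all tested probe sets, 9.01% had such an unadjusted p. In the flavonoid pathway (7 of 20 measured, 4 with a positive and 3 with a negative log2 difference, median 0.001), AT1G06000 had 0.26, UGT78D1, a flavonol rhamnosyltransferase gene, 0.20, and DFR, the dihydroflavonol reductase gene of anthocyanin synthesis, -0.40 (limma, adjusted p = 0.552, 0.730 and 0.721). AT1G06000 was 1 of the genes without overlap of the groups, at 7.05 ± 0.03 in ara6-1 and 6.79 ± 0.15 in WT (SD, n = 3 each). Its nearest arrays were 0.05 apart on the log2 scale, and 7.81% of all probe sets were likewise higher without overlap.

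The list of detoxification and oxidative stress had 4 of 30 entries measured, 2 positive and 2 negative, with a median of 0.11. GSTU22, GSTU25 and GSTU26, genes of glutathione transferases, had log2 differences of 0.38, 0.31 and -0.27 (limma, adjusted p = 0.707, 0.651 and 0.685), all with overlapping groups. The list of salicylic acid and immunity had 3 of 19 entries measured, all positive, with a median of 0.14. UGT74F1, a salicylic acid glucosyltransferase gene, had 0.21 without overlap of the groups (limma, adjusted p = 0.586). It was dim, at percentile 19.6 of all tested probe sets. Its nearest arrays were 0.1 apart in intensity, the smallest step the deposited values resolve, and 7.81% of all probe sets were likewise higher without overlap. SAG101, an immune signalling partner of EDS1, had 0.14 and UGT76B1 had 0.04. The abscisic acid list had 3 of 18 entries measured, 2 positive and 1 negative, with a median of 0.09. BGLU33, a beta-glucosidase gene that releases abscisic acid from its glucose ester, had 0.33 (limma, adjusted p = 0.549). The abscisic acid glucosyltransferase genes UGT71C5 and UGT71B6 had 0.09 and -0.08 (limma, adjusted p = 0.869 and 0.927). The groups overlapped in all of them.

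Tissue markers are given beside these values. LHCB4.1, a light-harvesting protein gene, and PYK10 were higher in all 3 mutant arrays, with log2 differences of 0.17 and 0.11 (limma, adjusted p = 0.634 and 0.727). Their nearest arrays were 0.043 and 0.044 apart on the log2 scale, and 7.81% of all probe sets were likewise higher without overlap. The other 3 measured markers had overlapping groups and differences from -0.03 to 0.10. The part of the markers in the UGT73B values was not tested. In RNA from whole plants, fewer cells that express a gene and less RNA per cell cannot be told apart.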

How the data were processed

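Biotin-labelled total RNA of 6 samples was hybridized to Affymetrix arrays, per the labels' protocols. The submitters' processing notes name Affymetrix Expression Console 1.3 for the deposited linear intensity values. How probes were summarized, the genome build and the annotation are not given in the sources used here. Near-equal array medians led to no further normalization. Of 38408 rows, 28501 written to 1 decimal were tested; 9907 with more decimals, of unstated kind, were left out. Probe sets were named through the platform's gene table and the RefSeq annotation of TAIR10.1: 16704 named 1 gene (148 not found in RefSeq), 744 several and 11053 none. Deposited intensities were turned into log2 here (floor of 1, touching 0 values).

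A two-sided limma test (version 3.58.1, R 4.3.3; lmFit, eBayes) compared the genotypes, with a threshold of 0.05 after Benjamini-Hochberg adjustment over the 28501 probe sets, and was tested on simulated data. Precision was limited by 3 arrays a group. The members and lists were chosen with earlier results of these data known. Named genes were all members and other UGT73 genes, up to 3 other UGT genes a direction with separated groups and the largest difference, the 3 smallest p of each list, and the 3 nearest patterns. Alternatives changed the filter, normalization, prior variance, moderation, weights, block, rows, offset and arrays used.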

Additional observations from a re-analysis of the deposited data

How the results depend on the processing

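None of the 5 members passed the adjusted threshold in limma in any alternative run, with adjusted p between 0.345 and 0.997. UGT73B2, UGT73B3 and UGT73B5 kept their direction in all of them, with log2 differences of 0.21 to 0.44, 0.27 to 0.39 and 0.18 to 0.58. Leaving out single arrays turned UGT73B1 once (range -0.21 to 0.00353, the highest without WT replicate 2) and UGT73B4 once (range -0.0822 to 0.31, the lowest without ara6-1 replicate 2). The count of probe sets past the threshold was 3, became 16 where the prior variance follows intensity, 0 with no moderation, 1 without WT replicate 3 and ara6-1 replicate 1 together, and 2 to 4 with single arrays left out; the cause was not tested. The count of members higher without overlap, 2, was 1 with arrays centred on their medians and 2 to 3 with single arrays left out, alternatives chosen after seeing the data, as was leaving out both arrays that stood apart. UGT73B3 could not be tested with the dimmest 30% of the probe sets left out, since it was among them, and no gene had a further probe set to try. Replicate numbers did not pair the arrays (same-numbered deviations correlated at r = -0.196, 0.174 and -0.150), and the replicate block gave 2 probe sets past the threshold and changed no member's call (adjusted p between 0.623 and 0.876 in limma). Between genotypes, the highest correlation was 0.289, of ara6-1 replicate 1 with WT replicate 3, the arrays that stood apart. The lowest was -0.243, of ara6-1 replicate 2 with WT replicate 3. Whether an unlabelled factor was shared by such arrays was not tested. The number of arrays, 3 a group, limits the precision, and no detection call over background was used.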
